A study of Homo sapiens with 12 samples.

Results

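The collagen genes of human embryonic stem cells were followed across changes in the transcription factors ZNF263 and ZIC2. The family was taken as every gene of the count table whose symbol has the form COL, a type number, A and a chain number. This gave 44 of 27130 genes. They were grouped by type into 9 fibrillar genes (types I, II, III, V and XI), 8 basement membrane genes (types IV, XV and XVIII) and 27 other genes. Poly(A) RNA of H1 (WA01) cells, a long-established human embryonic stem cell line, had been sequenced in 12 libraries, 3 in each of 4 groups. The groups were cells with a homozygous knockout of ZNF263 and overexpression of ZIC2 (KO with ZIC2 OE), cells with the homozygous knockout alone (KO), cells that overexpressed ZNF263 (ZNF263 OE), and wild type cells (WT). The library names of the KO and WT groups carry the tag vec. Those of both knockout groups share a further tag that the WT and ZNF263 OE names lack, and its meaning is not stated. The stated interest was the part ZNF263 plays in pluripotency, with ZIC2 as a cofactor. The sources used here do not say whether the knockout cells were 1 clone or whether replicates were separate cultures. The p-values therefore refer to the spread between these libraries alone, part or all of which may be technical.

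A collagen is built of 3 polypeptide chains wound into a triple helix, and each gene encodes 1 chain. Fibrillar collagens pack into the fibres that give tissue its tensile strength, and type IV collagen forms the sheet-like network of basement membranes. Many of the other types link, coat or anchor these structures or span the cell membrane. Newly made chains are hydroxylated and folded in the endoplasmic reticulum, exported, trimmed by proteases outside the cell and cross-linked by lysyl oxidases. Pluripotent cells sit on a laminin and type IV matrix, while large amounts of type I collagen are typical of fibroblasts and bone-forming cells. ZNF263 is a zinc finger protein whose known DNA motif repeats the letters GGAGGA, and ZIC proteins are known to bind motifs holding CCTGCTG.

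The upstream DNA of 6 members is printed as 5 sequences. COL6A3, COL13A1 and COL12A1 are 3 of the 5 collagens called more than 2-fold higher in KO with ZIC2 OE than in WT cells, beside COL1A1 and COL5A3. These are 5 of 36 tested collagens, where 299 of all 15437 tested genes were called more than 2-fold higher. COL18A1 was the most abundant collagen, and COL4A1 and COL4A2 share 1 start region. COL6A3 and COL13A1 are shown for the number of their matches and COL12A1 for its rise in KO cells. Sequences are from RefSeq (GRCh38.p14) and run 5′ to 3′ up to the base before the annotated start, 250 bases for single genes and the whole interval between both starts for the type IV pair. Capitals mark the ZNF263 letters given above, searched on both strands with overlaps counted.
COL6A3, chr2:237414165-237414414, minus strand: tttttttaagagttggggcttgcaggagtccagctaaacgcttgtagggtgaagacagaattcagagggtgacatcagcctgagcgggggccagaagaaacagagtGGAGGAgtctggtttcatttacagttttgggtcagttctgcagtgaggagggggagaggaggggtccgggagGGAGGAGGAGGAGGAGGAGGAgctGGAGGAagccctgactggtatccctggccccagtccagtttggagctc
COL13A1, chr10:69801656-69801905, plus strand: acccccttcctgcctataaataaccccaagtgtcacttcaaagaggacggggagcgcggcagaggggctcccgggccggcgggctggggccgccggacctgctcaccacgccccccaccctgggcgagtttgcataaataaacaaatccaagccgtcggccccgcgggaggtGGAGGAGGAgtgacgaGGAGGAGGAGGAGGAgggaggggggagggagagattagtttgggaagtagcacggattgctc
COL12A1, chr6:75206054-75206303, minus strand: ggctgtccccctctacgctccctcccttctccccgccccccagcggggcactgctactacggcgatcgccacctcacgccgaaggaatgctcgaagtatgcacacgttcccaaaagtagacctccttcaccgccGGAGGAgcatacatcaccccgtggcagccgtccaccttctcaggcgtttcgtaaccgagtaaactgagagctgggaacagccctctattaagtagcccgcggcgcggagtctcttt
COL18A1, chr21:45404915-45405164, plus strand: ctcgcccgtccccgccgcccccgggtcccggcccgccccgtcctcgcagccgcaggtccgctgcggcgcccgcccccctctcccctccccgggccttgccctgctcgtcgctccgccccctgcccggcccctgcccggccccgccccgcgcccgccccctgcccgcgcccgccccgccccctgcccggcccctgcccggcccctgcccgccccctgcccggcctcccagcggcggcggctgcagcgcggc
COL4A1 and COL4A2, chr13:110307158-110307283, plus strand: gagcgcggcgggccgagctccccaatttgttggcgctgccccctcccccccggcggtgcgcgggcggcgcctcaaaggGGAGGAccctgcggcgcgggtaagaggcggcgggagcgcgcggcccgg
The COL6A3 window held the ZNF263 letters at 8 positions and the COL13A1 window at 6, mostly in runs of the repeat. The COL12A1 window held 1 match, as did that of COL5A3. The COL18A1 window held none at this start, and the type IV interval held 1. COL16A1, not printed, held 4. At least 5 matches on either strand were found in 0.669% of the 35116 windows of all genes, and at least 1 match in 31.8%. As COL6A3 and COL13A1 were picked for their matches, the first share cannot show an excess among collagens, which was not tested. RefSeq windows were matched for 32 of the 44 members, giving 44 windows with alternative starts, and 20 of these (45.5%) held the ZNF263 letters. The 12 members without a matched window were not searched. They include COL1A1, COL1A2, COL2A1, COL5A2, COL6A1, COL9A3 and COL14A1. The ZIC letters, on both strands, were found in 2 of the 44 collagen windows (4.55%), for COL27A1 and for 1 start of COL4A6, against 8.48% of all windows. A match describes letters only, and binding of either factor was not measured.

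The libraries held 17175183 to 21804410 counts, except KO replicate 1 with 43464609, and replicates of a group differed by more than counting error. ZIC2 averaged 2040 ± 175 CPM in KO with ZIC2 OE cells, 156 ± 3.81 CPM in KO cells and 208.5 ± 3.74 CPM in WT cells (SD, n = 3 each). CPM are read counts scaled to a common library total with TMM factors. ZIC2 in KO with ZIC2 OE cells thus stood 9.79-fold above WT, and it fell in KO against WT (log2 fold change -0.42, adjusted p = 3.39e-07). ZNF263 averaged 31.1 ± 0.128 CPM in KO cells, 239.6 ± 18 CPM in ZNF263 OE cells and 39.2 ± 1.35 CPM in WT cells (SD, n = 3 each), so most of its transcript counts were still present in the knockout. The sources used here do not describe the edit. The pluripotent identity of the cells was checked on 10 marker genes, whose summed level was 9299 to 9456 CPM in KO with ZIC2 OE, 9672 to 9853 CPM in KO, 9738 to 9923 CPM in ZNF263 OE and 9527 to 9576 CPM in WT libraries. Of these 10 genes, 4 rose and 3 fell in KO against WT, 0 rose and 3 fell in KO with ZIC2 OE against KO, and 3 rose and 3 fell in KO with ZIC2 OE against WT. The shares of all tested genes called in these comparisons were 38.6%, 8.34% and 37.6%. In KO against WT, POU5F1 rose by 0.39 on the log2 scale (adjusted p = 0.000782) and LIN28A by 0.20 (adjusted p = 1.46e-05). DNMT3B and TDGF1 each rose by 0.14 (adjusted p = 0.00244 and 0.00249). The 3 that fell were USP44 (-0.43, adjusted p = 1.06e-08), L1TD1 (-0.27, adjusted p = 7.19e-07) and DPPA4 (-0.13, adjusted p = 0.00235). Tests are edgeR quasi-likelihood tests over 15437 genes with enough counts, and a gene was called at a Benjamini-Hochberg adjusted p under 0.05. "Higher", "lower", "rose" and "fell" refer to called genes only, and a bare number in brackets after a lost or gained call is its adjusted p. In bulk RNA, fewer cells of a type and less RNA per cell cannot be told apart.

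Of the 44 collagen genes, 36 had enough counts to be tested: 7 fibrillar, 7 basement membrane and 22 other genes. The untested members were COL3A1, COL11A2, COL15A1, COL6A5, COL6A6, COL19A1, COL20A1 and COL28A1, with 3 to 80 counts each over all 12 libraries. COL3A1, the usual partner of type I collagen in soft connective tissue, had 17 counts in all and no more than 3 in any library. COL11A2 had 3 counts, and its deposited entry spans 7 contigs, so its count is uncertain.

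Per length, the most abundant collagen was COL18A1, which encodes the basement membrane proteoglycan core whose end fragment is endostatin, with a mean of 58.7 RPKM (CPM per kilobase of deposited exon length) over the 12 libraries. It was followed by COL26A1 (36.6 RPKM), which encodes a small collagen-related secreted protein, COL6A1 (20.6 RPKM), COL1A1 (19.2 RPKM), COL9A3 (17.4 RPKM), COL1A2 (17.2 RPKM), COL4A1 (17.0 RPKM), COL4A2 (15 RPKM) and COL6A2 (10.9 RPKM). The order of these genes was not the same in every group. COL1A1 held 11.2 to 12.6% of all collagen RPKM in KO with ZIC2 OE libraries, 6.42 to 7.33% in KO, 4.35 to 4.6% in ZNF263 OE and 4.65 to 5.08% in WT libraries. COL26A1 held 11.5 to 12.1% in KO with ZIC2 OE, 12 to 13.2% in KO, 15.7 to 15.9% in ZNF263 OE and 15.4 to 16% in WT libraries.

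**Figure D1:**
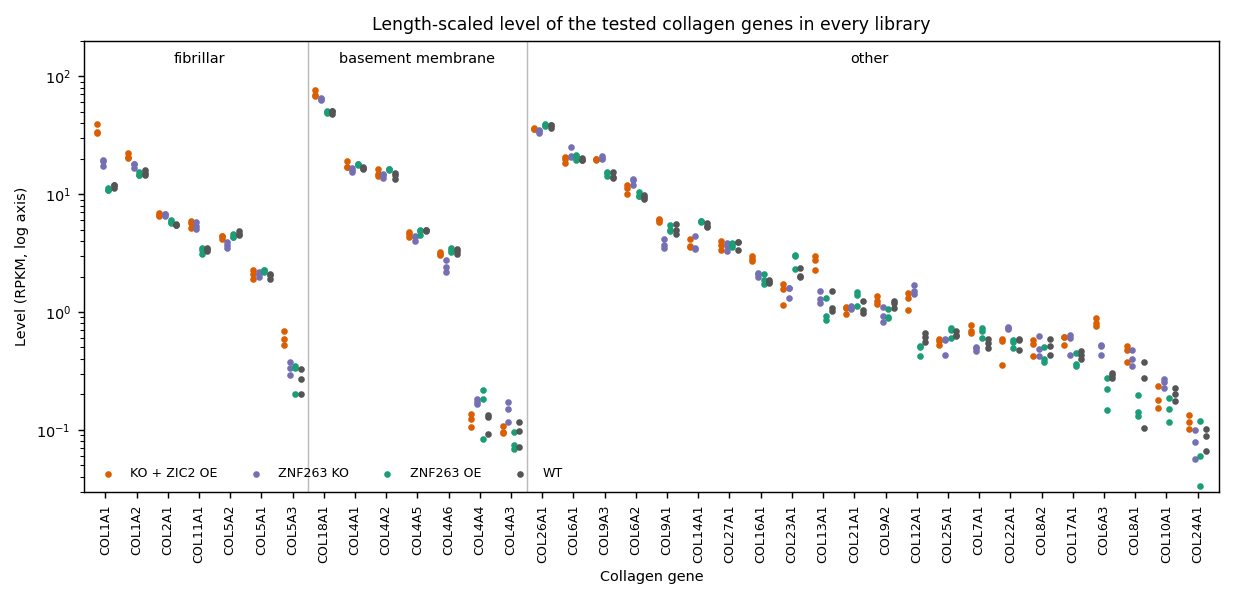
Level of each of the 36 tested collagen genes in every library, in RPKM on a log axis, by class and in order of mean level. Each point is 1 library, coloured by group. COL18A1 leads the family in all 4 groups, and COL1A1 shows the KO with ZIC2 OE and KO libraries above those of the other groups.

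Summed over each class, the fibrillar collagens differed most between the groups. Their summed level was 75.8 ± 4.86 RPKM in KO with ZIC2 OE cells, 54.5 ± 0.635 RPKM in KO cells, 41.9 ± 0.517 RPKM in ZNF263 OE cells and 42.8 ± 0.706 RPKM in WT cells (SD, n = 3 each). All KO with ZIC2 OE libraries lay above all KO libraries, and these above all ZNF263 OE and WT libraries. The basement membrane class summed to 112 ± 6.29 RPKM in KO with ZIC2 OE, 101.4 ± 2.87 RPKM in KO, 92.3 ± 1.38 RPKM in ZNF263 OE and 89.1 ± 2.76 RPKM in WT cells. The other collagens were nearer to each other, at 115 ± 1.00 RPKM in KO with ZIC2 OE, 113.5 ± 1.99 RPKM in KO, 110.8 ± 1.76 RPKM in ZNF263 OE and 107.3 ± 0.853 RPKM in WT cells. Single genes carried much of the fibrillar and basement membrane differences. COL18A1 alone averaged 71.2 RPKM in KO with ZIC2 OE, 63.9 RPKM in KO and 49.7 RPKM in WT cells. COL1A1 alone averaged 35.5, 18.65 and 11.7 RPKM in that order. As ratios of summed RPKM, KO stood at 1.27 times WT for fibrillar, 1.14 for basement membrane and 1.06 for other collagens. Scaled to TPM, which sets the length-scaled total of every library equal, the same KO to WT ratios were 1.19, 1.07 and 0.991, so the direction for the other collagens depends on the scale.

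**Figure D2:**
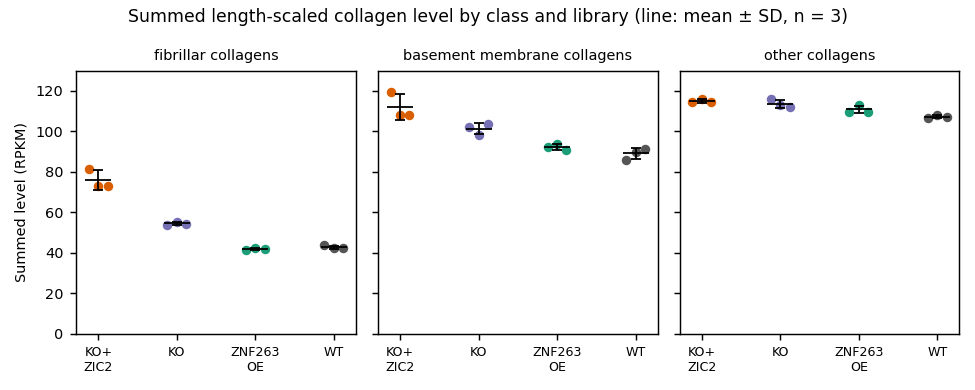
Summed level (RPKM) of the fibrillar, basement membrane and other collagens in each library. Points are libraries, and lines and bars are the mean and SD of 3 libraries. The fibrillar sum is highest in KO with ZIC2 OE cells (75.8 RPKM), then KO cells (54.5 RPKM), with ZNF263 OE and WT cells at 41.9 and 42.8 RPKM.

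Between KO and WT cells, 18 of the 36 tested collagens were called, 11 higher and 7 lower, where 38.6% of all tested genes were called (20.0% higher and 18.5% lower). The replicates of both groups did not overlap for 21 of the 36, against 46.7% of all genes. Of the fibrillar genes 4 rose and 1 fell, of the basement membrane genes 1 rose and 2 fell, and of the others 6 rose and 4 fell. The median log2 fold change of the tested collagens was 0.19, beside -0.01 for all tested genes. Collagen transcripts are rich in G and C, with a median GC content of 57.3% beside 48.5% for all tested genes, and log2 fold changes of KO against WT followed GC content across genes (Spearman 0.42 over 14696 genes, which are not independent replicates). With GC content and length corrected for, 17 collagens were called, 9 higher and 8 lower, and the median was 0.09. Without KO replicate 1 the uncorrected median was 0.10, and without WT replicate 3 it was 0.12. With no filter on low counts, which takes in the untested members, the uncorrected median was 0.032.

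Between KO with ZIC2 OE and KO cells, 14 of the 36 were called, 11 higher and 3 lower, where 8.34% of all tested genes were called (4.99% higher and 3.35% lower). The replicates did not overlap for 20 of the 36, against 21.8% of all genes. Here the rises took in 4 fibrillar, 2 basement membrane and 5 other genes, and all 3 falls were in the other class. The median log2 fold change was 0.08, beside 0.00 for all tested genes, and the Spearman correlation of fold change with GC content was 0.01. Fitted on these 6 libraries alone, the test called 9 collagens, all higher. Between KO with ZIC2 OE and WT cells, 17 were called, 15 higher and 2 lower, where 37.6% of all tested genes were called (20.3% higher and 17.3% lower). The replicates did not overlap for 23 of the 36, against 47.3% of all genes. In that comparison 5 fibrillar, 1 basement membrane and 9 other genes rose, and the median was 0.10 (0.16 without WT replicate 3), beside 0.00 for all genes. The Spearman correlation of fold change with GC content was 0.44 there. With the correction 13 rose and 4 fell, with a median of 0.06. These comparisons share libraries, so their counts are not independent of each other.

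**Figure D3:**
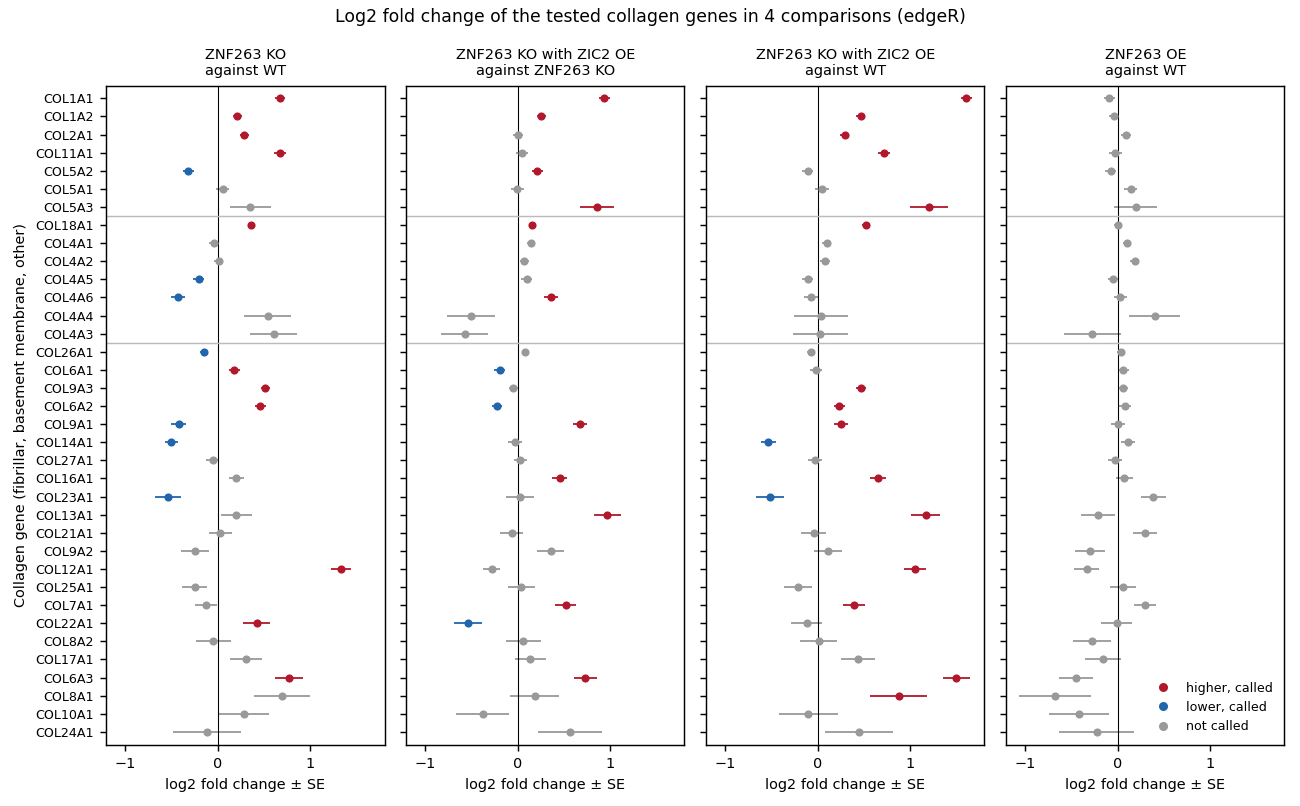
Log2 fold change (edgeR, with its standard error as a bar) of the 36 tested collagen genes in 4 comparisons, fibrillar genes at the top, then basement membrane and other genes. Red points were called higher, blue points lower and grey points not called. COL1A1 is higher in the 3 comparisons of knockout cells, and no collagen is called under ZNF263 OE.

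The genes of type I collagen, the main fibre-forming protein of bone, skin and tendon, were both higher in knockout cells and higher again with ZIC2. COL1A1, the alpha 1 chain (chromosome 17, 48261457 to 48279000, hg19, minus strand), had 235, 201 and 196 CPM in KO with ZIC2 OE cells, 103, 116 and 112 CPM in KO cells, 64.5, 64.1 and 66.1 CPM in ZNF263 OE cells, and 71.1, 66.3 and 70.3 CPM in WT cells. The 3 KO with ZIC2 OE libraries stood well above the KO libraries, and the KO libraries above all ZNF263 OE and WT libraries. Its log2 fold change reached 0.67 (SE 0.06, adjusted p = 8.06e-09) for KO against WT, 0.94 (SE 0.06, adjusted p = 4.49e-11) for KO with ZIC2 OE against KO, and 1.61 (SE 0.06, adjusted p = 3.99e-15), or 3.04-fold, for KO with ZIC2 OE against WT. COL1A2, the alpha 2 chain (chromosome 7, 94023873 to 94060544, hg19, plus strand), had 121, 112 and 109 CPM in KO with ZIC2 OE cells, 98.3, 96.7 and 90.8 CPM in KO cells, 77.9, 83.7 and 78.5 CPM in ZNF263 OE cells, and 87.2, 81.9 and 78.8 CPM in WT cells. The groups stood in the same order as for COL1A1 but closer together, and again the KO with ZIC2 OE, KO and WT libraries did not overlap. Its log2 fold changes were 0.21 (SE 0.05, adjusted p = 0.00178), 0.25 (SE 0.05, adjusted p = 0.00105) and 0.46 (SE 0.05, adjusted p = 2.25e-07) for KO against WT, KO with ZIC2 OE against KO, and KO with ZIC2 OE against WT. For KO against WT correcting for GC content and length gave 0.34 for COL1A2 and 0.57 for COL1A1.

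Cartilage-type fibrillar genes rose in the knockout and did not pass the test between the knockout groups. COL11A1, a chain of the type XI collagen that lies inside cartilage fibrils, had 42.2, 38.4 and 44.3 CPM in KO with ZIC2 OE cells, 39.6, 37.9 and 43.4 CPM in KO cells, 25.0, 23.2 and 26.1 CPM in ZNF263 OE cells, and 24.3, 25.5 and 26.1 CPM in WT cells. All 6 knockout libraries lay above all 6 others, and the 2 knockout groups overlapped. The log2 fold change was 0.67 (SE 0.06, adjusted p = 3.62e-08) for KO against WT and 0.05 (SE 0.06, adjusted p = 0.754) for KO with ZIC2 OE against KO. COL2A1, the main chain of cartilage fibres, had 35.0, 33.1 and 34.1 CPM in KO with ZIC2 OE cells, 33.1, 34.8 and 34.5 CPM in KO cells, 30.5, 29.6 and 29.1 CPM in ZNF263 OE cells, and 27.8, 28.2 and 27.7 CPM in WT cells. It was higher by 0.29 (SE 0.05, adjusted p = 0.000122) in KO than in WT cells on the log2 scale, without overlap, and by 0.17 (adjusted p = 0.00913) with GC content and length corrected for. The corresponding values for KO with ZIC2 OE against WT were 0.29 (adjusted p = 0.000172) and 0.16 (adjusted p = 0.0207).

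Type V collagen, which sets the width of type I fibres, was split among its genes. COL5A2 had 29.1, 30.4 and 30.4 CPM in KO with ZIC2 OE cells, 27.3, 24.3 and 25.4 CPM in KO cells, 30.1, 32.1 and 29.9 CPM in ZNF263 OE cells, and 31.3, 33.6 and 32.0 CPM in WT cells. It was the 1 fibrillar gene that fell in KO cells (log2 fold change -0.32, SE 0.06, adjusted p = 0.000123), and the KO libraries were the lowest of all. With ZIC2 OE it was higher than in KO by 0.21 (SE 0.06, adjusted p = 0.0242), a call that was lost with DESeq2 (adjusted p = 0.0733), with these 2 groups alone (0.0645) and without KO with ZIC2 OE replicate 2 or 3 or KO replicate 2 or 3 (0.0735 to 0.0853). COL5A3, at a far lower level, had 4.25, 3.26 and 3.63 CPM in KO with ZIC2 OE cells, 2.07, 2.32 and 1.82 CPM in KO cells, 1.25, 2.16 and 2.09 CPM in ZNF263 OE cells, and 2.02, 1.65 and 1.24 CPM in WT cells. The KO with ZIC2 OE libraries stood apart from all others, and the difference on the log2 scale was 0.85 (SE 0.18, adjusted p = 0.00349) against KO and 1.20 (SE 0.21, adjusted p = 8.68e-05) against WT. COL5A1, at 17.7 ± 1.46 CPM in KO with ZIC2 OE, 17.7 ± 0.900 CPM in KO, 19.0 ± 0.477 CPM in ZNF263 OE and 17.2 ± 0.785 CPM in WT cells (SD, n = 3 each), passed the test in none of the 4 comparisons.

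**Figure D4:**
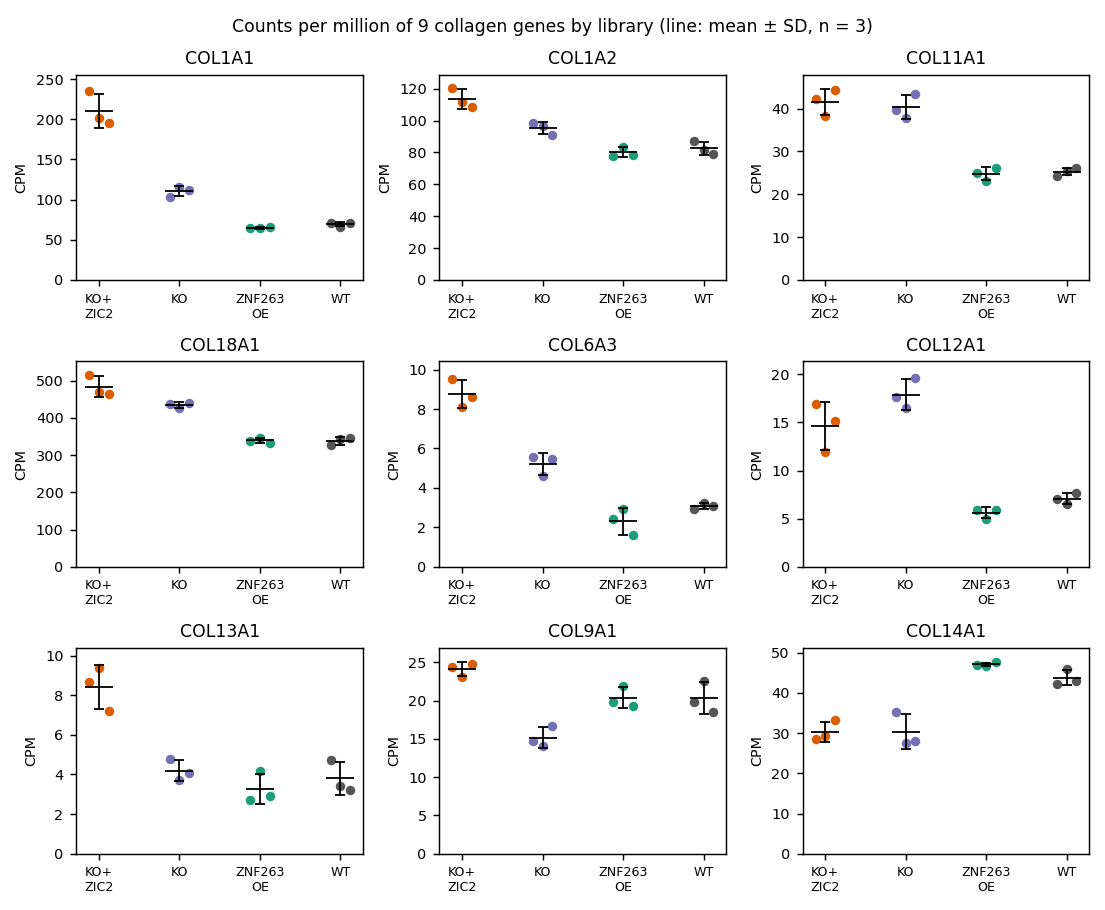
Level (CPM) of 9 collagen genes in each library (points), with the mean and SD of 3 libraries per group; axes start at 0 and differ between genes. COL1A1 reaches 196 to 235 CPM in KO with ZIC2 OE cells, COL12A1 is higher in both knockout groups, COL9A1 is lowest in KO cells, and COL14A1 is lower in both knockout groups than in the other 2.

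Among basement membrane genes, COL18A1 rose in the knockout, while no type IV gene was called higher there. COL18A1 (chromosome 21, 46825052 to 46933634, hg19, plus strand) had 516, 471 and 465 CPM in KO with ZIC2 OE cells, 438, 426 and 440.0 CPM in KO cells, 337, 347 and 333 CPM in ZNF263 OE cells, and 327, 342 and 345 CPM in WT cells. Its groups did not overlap except for ZNF263 OE and WT. The log2 fold change for KO against WT was 0.36 (SE 0.04, adjusted p = 2.22e-07), or 0.24 (adjusted p = 1.46e-08) with GC content and length corrected for. For KO with ZIC2 OE against KO it was 0.16 (SE 0.04, adjusted p = 0.0120), which was not called without KO with ZIC2 OE replicate 1 (adjusted p = 0.108) or with these 2 groups alone (0.0622).

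The 6 type IV genes lie in head-to-head pairs, each pair running outward from 1 start region. On hg19 the annotated bounds of COL4A1 and COL4A2 on chromosome 13 were 109 bases apart, those of COL4A4 and COL4A3 on chromosome 2 were 5 bases apart, and those of COL4A6 and COL4A5 on chromosome X were 346 bases apart. COL4A1, which with COL4A2 makes the common form of the network, had 143, 127 and 126 CPM in KO with ZIC2 OE cells, 119, 115 and 125 CPM in KO cells, 133, 133 and 131 CPM in ZNF263 OE cells, and 121, 124 and 126 CPM in WT cells. The KO and WT libraries overlapped, and the KO with ZIC2 OE libraries lay just above both, by a log2 difference of 0.14 (SE 0.05, adjusted p = 0.0567) against KO. COL4A1 was called in that comparison with no filter on low counts (0.0461) and without KO with ZIC2 OE replicate 3 (0.0328) or KO replicate 3 (0.0412). Against WT it was called without KO with ZIC2 OE replicate 3 (0.0488). COL4A2 had 105, 92.1 and 95.3 CPM in KO with ZIC2 OE cells, 94.1, 88.7 and 95.6 CPM in KO cells, 105, 106 and 103 CPM in ZNF263 OE cells, and 86.5, 93.3 and 96.8 CPM in WT cells. Against WT its log2 fold change in KO was 0.01 (SE 0.05, adjusted p = 0.905), with a 95% interval of -0.09 to 0.11. The ratio of COL4A1 to COL4A2 in RPKM was 1.18 ± 0.0286 in KO with ZIC2 OE, 1.12 ± 0.0185 in KO, 1.10 ± 0.0103 in ZNF263 OE and 1.16 ± 0.0456 in WT cells (SD, n = 3 each).

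COL4A5 and COL4A6, which form a network found in smooth muscle and some epithelia, were both lower in KO than in WT cells. COL4A6 had 21.2, 21.4 and 22.1 CPM in KO with ZIC2 OE cells, 16.5, 15 and 18.9 CPM in KO cells, 23.1, 24.2 and 22.2 CPM in ZNF263 OE cells, and 21.5, 22.7 and 23.8 CPM in WT cells. The KO libraries were the lowest of all 12, and the log2 difference was -0.43 (SE 0.07, adjusted p = 6.25e-05) against WT. With ZIC2 OE the gene was higher than in KO by 0.36 (SE 0.07, adjusted p = 0.00224), and its difference from WT was -0.07 (SE 0.07, adjusted p = 0.463, 95% interval -0.23 to 0.08). COL4A5 had 30.1, 28.3 and 31.2 CPM in KO with ZIC2 OE cells, 29, 26.1 and 28.2 CPM in KO cells, 32.4, 29.1 and 31.9 CPM in ZNF263 OE cells, and 31.9, 32.4 and 32.3 CPM in WT cells. It fell by 0.21 in KO cells on the log2 scale (SE 0.06, adjusted p = 0.00679), without overlap with WT. The ratio of COL4A5 to COL4A6 was 1.47 ± 0.0561 in KO with ZIC2 OE, 1.76 ± 0.159 in KO, 1.42 ± 0.131 in ZNF263 OE and 1.51 ± 0.0664 in WT cells.

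COL4A3 and COL4A4, chains of the kidney and inner ear network, were near the floor of the data, with 10 to 74 counts per library. COL4A3 had 0.760, 0.773 and 0.878 CPM in KO with ZIC2 OE cells, 1.21, 0.948 and 1.40 CPM in KO cells, 0.600, 0.554 and 0.771 CPM in ZNF263 OE cells, and 0.578, 0.800 and 0.953 CPM in WT cells. COL4A4 had 1.27, 1.10 and 1.41 CPM in KO with ZIC2 OE cells, 1.72, 1.90 and 1.77 CPM in KO cells, 2.24, 1.89 and 0.862 CPM in ZNF263 OE cells, and 1.33, 0.960 and 1.38 CPM in WT cells. Neither passed the test in any comparison. Their log2 fold changes for KO against WT were 0.60 (SE 0.26, adjusted p = 0.0674) and 0.54 (SE 0.26, adjusted p = 0.106), and COL4A4 was called without ZNF263 OE replicate 3 (adjusted p = 0.0480).

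The 3 genes of type VI collagen, a beaded microfibril that surrounds cells, went different ways. COL6A3 (chromosome 2, 238232655 to 238322850, hg19, minus strand), whose large alpha 3 chain completes the type VI molecule, had 9.52, 8.11 and 8.61 CPM in KO with ZIC2 OE cells, 5.59, 4.58 and 5.46 CPM in KO cells, 2.40, 2.94 and 1.59 CPM in ZNF263 OE cells, and 2.95, 3.25 and 3.10 CPM in WT cells. KO with ZIC2 OE libraries were highest, then KO, and both lay above all WT and ZNF263 OE libraries. ZNF263 OE libraries lay below WT by a narrow margin (at most 2.94 and at least 2.95 CPM), a difference that was not called (adjusted p = 0.377). The log2 fold change was 0.77 (SE 0.15, adjusted p = 0.000314) for KO against WT, 0.73 (SE 0.12, adjusted p = 0.000311) for KO with ZIC2 OE against KO, and 1.5 (SE 0.15, adjusted p = 4.89e-08) for KO with ZIC2 OE against WT. COL6A1 had 77.6, 86.7 and 83.9 CPM in KO with ZIC2 OE cells, 106, 87.9 and 88.3 CPM in KO cells, 82.4, 88.5 and 91.0 CPM in ZNF263 OE cells, and 82.5, 85.9 and 82.8 CPM in WT cells. KO replicate 1 stood above all other libraries, and without it the gene was not called for KO against WT (log2 fold change 0.07, adjusted p = 0.307; 0.18, adjusted p = 0.0233 with it) or for KO with ZIC2 OE against KO (-0.10, adjusted p = 0.295; -0.20, adjusted p = 0.0475 with it). The first of these calls was also lost without WT replicate 1 or 3 (0.0665 and 0.0823), with only the KO and WT libraries (0.0553) and after the GC and length correction (0.491). The second was lost in the 7 fits that each left out 1 of KO with ZIC2 OE replicates 1 and 3, the 3 ZNF263 OE replicates and WT replicates 2 and 3 (0.0508 to 0.259), and with only the KO with ZIC2 OE and KO libraries (0.141). For KO with ZIC2 OE against WT, COL6A1 had -0.02 (adjusted p = 0.850), and the GC and length correction gave a called fall of -0.16 (adjusted p = 0.0380). COL6A2 averaged 48.1 ± 4.03 CPM in KO with ZIC2 OE, 56.2 ± 3.54 CPM in KO, 43.2 ± 2.11 CPM in ZNF263 OE and 41.0 ± 1.66 CPM in WT cells (SD, n = 3 each). It was higher in KO than in WT (log2 fold change 0.46, SE 0.06, adjusted p = 3.16e-06) and lower in KO with ZIC2 OE than in KO (-0.23, SE 0.06, adjusted p = 0.0166). The second COL6A2 call was lost with only these 2 groups (0.0621), without KO replicate 1 (0.0713) and without KO with ZIC2 OE replicate 3 (0.125). COL6A2 was also higher in KO with ZIC2 OE than in WT (0.23, SE 0.06, adjusted p = 0.00536), a call lost after the GC and length correction (0.210). Per length, COL6A3 remained scarce beside COL6A1, with a ratio of RPKM of 0.0420 ± 0.00590 in KO with ZIC2 OE, 0.0219 ± 0.00213 in KO, 0.0105 ± 0.00323 in ZNF263 OE and 0.0146 ± 0.000450 in WT cells.

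Collagens that coat or link fibrils (the FACIT group) also moved in both directions. COL12A1 (chromosome 6, 75794042 to 75915623, hg19, minus strand), whose product lies along type I fibres in tendon and muscle, had 16.9, 11.9 and 15.1 CPM in KO with ZIC2 OE cells, 17.6, 16.4 and 19.6 CPM in KO cells, 5.89, 4.93 and 5.95 CPM in ZNF263 OE cells, and 7.05, 6.51 and 7.67 CPM in WT cells. Every knockout library was above every other library, and ZNF263 OE was below WT. Its rise in KO was the largest of the tested collagens in that comparison, and the log2 difference was 1.33 (SE 0.11, adjusted p = 3.17e-09), or 2.52-fold. The difference of KO with ZIC2 OE from KO was -0.29 (SE 0.10, adjusted p = 0.0768), and it was called lower with no filter on low counts (adjusted p = 0.00851), after the GC and length correction (0.0140), and without KO with ZIC2 OE replicate 1 (0.0238) or KO replicate 2 (0.0192). COL14A1, a relative of COL12A1, had 28.4, 29.2 and 33.1 CPM in KO with ZIC2 OE cells, 35.3, 27.6 and 28.1 CPM in KO cells, 47.0, 46.8 and 47.6 CPM in ZNF263 OE cells, and 42.4, 45.9 and 43.0 CPM in WT cells. It ran against COL12A1: every knockout library was below every other, with log2 fold changes against WT of -0.50 (SE 0.07, adjusted p = 1.51e-05) in KO and -0.54 (SE 0.08, adjusted p = 1.30e-05) in KO with ZIC2 OE. COL16A1 had 16.6, 15.1 and 15.9 CPM in KO with ZIC2 OE cells, 11.7, 11 and 12 CPM in KO cells, 9.60, 10.5 and 11.6 CPM in ZNF263 OE cells, and 9.88, 10.0 and 10.3 CPM in WT cells. The KO with ZIC2 OE libraries were the highest, by 0.45 (SE 0.08, adjusted p = 0.000331) over KO on the log2 scale. COL16A1 in KO against WT had 0.20 (SE 0.08, adjusted p = 0.0609), called only without KO replicate 2 (0.0449) among the alternatives run. COL22A1, a collagen of tissue junctions, had 2.28, 3.64 and 3.75 CPM in KO with ZIC2 OE cells, 4.71, 4.53 and 4.66 CPM in KO cells, 3.65, 3.55 and 3.18 CPM in ZNF263 OE cells, and 3.70, 3.79 and 3.00 CPM in WT cells. The KO libraries were the highest of the 12, and the gene was called higher in KO than in WT (0.42, SE 0.15, adjusted p = 0.0291) and lower in KO with ZIC2 OE than in KO (-0.54, SE 0.15, adjusted p = 0.0270). The COL22A1 call for KO against WT was lost with DESeq2 (0.0674), after the GC and length correction (0.0860) and without KO replicate 1 or 3 or WT replicate 3 (0.0566 to 0.175). Its call between the knockout groups was lost with DESeq2 (0.0564), with those groups alone (0.0686) and without KO replicate 1 or 3 or KO with ZIC2 OE replicate 1 (0.0596 to 0.232; the log2 fold change was -0.33 without KO with ZIC2 OE replicate 1).

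Type IX collagen, which decorates cartilage fibrils with 1 chain from each of 3 genes, was unevenly changed. COL9A1 (chromosome 6, 70925743 to 71012786, hg19, minus strand) had 24.4, 23.1 and 24.8 CPM in KO with ZIC2 OE cells, 14.7, 14 and 16.7 CPM in KO cells, 19.8, 21.9 and 19.3 CPM in ZNF263 OE cells, and 19.8, 22.6 and 18.5 CPM in WT cells. The KO libraries were the lowest and the KO with ZIC2 OE libraries the highest of the 12. The gene fell by 0.42 in KO against WT on the log2 scale (SE 0.08, adjusted p = 0.000201) and was 0.67 higher (SE 0.08, adjusted p = 1.97e-06) in KO with ZIC2 OE than in KO, comparisons that share the KO libraries. Against WT it was 0.25 higher (SE 0.08, adjusted p = 0.0149) in KO with ZIC2 OE, a call lost without KO with ZIC2 OE replicate 1 or WT replicate 1 or 3 (0.0505 to 0.125). COL9A3 had 48.1, 49.2 and 49.7 CPM in KO with ZIC2 OE cells, 49.2, 52.8 and 50.5 CPM in KO cells, 37.5, 38.4 and 35.1 CPM in ZNF263 OE cells, and 38.0, 34.0 and 34.7 CPM in WT cells. All 6 knockout libraries exceeded the other 6, and the log2 difference was 0.51 (SE 0.05, adjusted p = 9.21e-08) for KO against WT and 0.46 (SE 0.05, adjusted p = 7.05e-07) for KO with ZIC2 OE against WT. The GC and length correction reduced these values to 0.32 and 0.31. Exons of COL9A3 share 146 bases with TCFL5 on the opposite strand, which had 5656 counts in all against 11067 for COL9A3, and reads of that stretch cannot be told apart without strand. COL9A2, at 3.55 ± 0.317 CPM in KO with ZIC2 OE, 2.70 ± 0.411 CPM in KO, 2.69 ± 0.269 CPM in ZNF263 OE and 3.30 ± 0.214 CPM in WT cells (SD, n = 3 each), was not called in any comparison. It was called lower in KO against WT after the GC and length correction (0.0453).

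Of the collagens that span the cell membrane, COL13A1 rose with ZIC2 and COL23A1 fell in the knockout. COL13A1, a collagen of cell adhesion sites and the neuromuscular junction (chromosome 10, 71561644 to 71718904, hg19, plus strand), had 8.66, 9.38 and 7.20 CPM in KO with ZIC2 OE cells, 4.80, 3.74 and 4.06 CPM in KO cells, 2.73, 4.16 and 2.90 CPM in ZNF263 OE cells, and 4.74, 3.41 and 3.24 CPM in WT cells. The KO with ZIC2 OE libraries stood above all others, which overlapped each other. The log2 fold change was 0.97 (SE 0.14, adjusted p = 6e-05) for KO with ZIC2 OE against KO and 0.20 (SE 0.17, adjusted p = 0.372) for KO against WT. COL23A1 had 4.76, 5.30 and 3.51 CPM in KO with ZIC2 OE cells, 4.01, 4.85 and 4.90 CPM in KO cells, 9.16, 9.37 and 7.12 CPM in ZNF263 OE cells, and 6.01, 6.13 and 7.29 CPM in WT cells. Both knockout groups lay below WT, by -0.54 (SE 0.14, adjusted p = 0.00414) for KO and -0.52 (SE 0.15, adjusted p = 0.00953) for KO with ZIC2 OE, and the call for KO with ZIC2 OE was lost without KO with ZIC2 OE replicate 3 (0.0652) or WT replicate 3 (0.0622). COL17A1 and COL25A1, also membrane collagens, were not called in any comparison.

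The remaining members with calls were COL26A1, COL7A1 and COL8A1. COL26A1 had 110.1, 108 and 108 CPM in KO with ZIC2 OE cells, 99.1, 106 and 104 CPM in KO cells, 117, 118 and 116 CPM in ZNF263 OE cells, and 111, 117 and 116 CPM in WT cells. The KO libraries were the lowest, and the log2 difference was -0.15 (SE 0.04, adjusted p = 0.00341) against WT. After the GC and length correction this was -0.31, and KO with ZIC2 OE against WT moved to -0.23 (adjusted p = 2.93e-06) where the uncorrected value was -0.07 (adjusted p = 0.162). COL7A1, which forms the fibrils that anchor skin epithelium, had 6.03, 7.12 and 6.33 CPM in KO with ZIC2 OE cells, 4.61, 4.32 and 4.57 CPM in KO cells, 6.27, 6.65 and 5.49 CPM in ZNF263 OE cells, and 5.37, 4.53 and 5 CPM in WT cells. It was higher in KO with ZIC2 OE than in KO (0.52, SE 0.11, adjusted p = 0.00392) and than in WT (0.39, SE 0.12, adjusted p = 0.0130), and the call against WT was lost after the GC and length correction (0.106) and without KO with ZIC2 OE replicate 2 (0.0738) or WT replicate 2 (0.0748). COL8A1, a short-chain collagen of vessel walls and the cornea, had 1.47, 1.60 and 1.17 CPM in KO with ZIC2 OE cells, 1.24, 1.48 and 1.07 CPM in KO cells, 0.436, 0.610 and 0.408 CPM in ZNF263 OE cells, and 1.16, 0.320 and 0.857 CPM in WT cells. It rose in KO with ZIC2 OE against WT by 0.87 (SE 0.31, adjusted p = 0.0309), at 6 to 53 counts per library. That call was lost with DESeq2 (0.0595) and without KO with ZIC2 OE replicate 1 or 2 or WT replicate 2 or 3 (0.0544 to 0.200; the log2 fold change was 0.50 without WT replicate 2), and KO against WT was called without WT replicate 1 (0.0203). COL8A2, COL10A1, COL21A1, COL24A1 and COL27A1 were called in no comparison.

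Because chains assemble in fixed proportions, the ratios of partner chains were set side by side. The ratio of COL1A1 to COL1A2 in RPKM was 1.78, 1.64 and 1.64 in KO with ZIC2 OE libraries, 0.961, 1.09 and 1.13 in KO libraries, 0.756, 0.700 and 0.769 in ZNF263 OE libraries, and 0.744, 0.740 and 0.815 in WT libraries. COL1A1, whose chain is the more numerous in the common type I molecule, exceeded COL1A2 in all KO with ZIC2 OE libraries and was below it in all ZNF263 OE and WT libraries. The ratio of COL9A1 to COL9A3 was 0.305 ± 0.0126 in KO with ZIC2 OE, 0.185 ± 0.0203 in KO, 0.341 ± 0.0134 in ZNF263 OE and 0.355 ± 0.0485 in WT cells (SD, n = 3 each). RNA ratios depend on the deposited exon lengths, do not measure protein and were not corrected for GC content. Transcripts of COL1A1 and COL1A2 hold 61.1% and 41.7% GC, and those of COL9A1 and COL9A3 hold 47.6% and 67.4%. For KO against WT, COL1A1 and COL1A2 had log2 fold changes of 0.67 and 0.21. After the GC and length correction these were 0.57 and 0.34, a narrower gap. COL9A1 and COL9A3 went from -0.42 and 0.51 to -0.39 and 0.32.

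**Figure D5:**
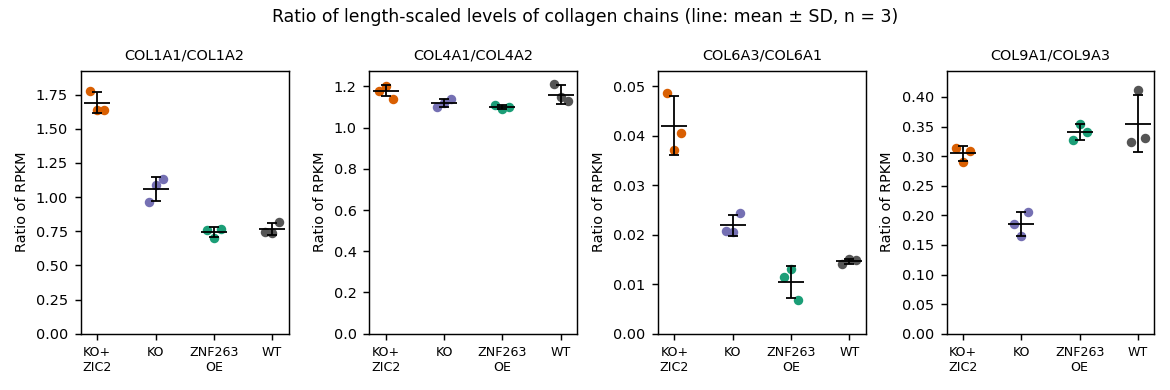
Ratio of length-scaled levels (RPKM) of partner collagen chains in each library, with the mean and SD of 3 libraries per group. Ratios were not corrected for GC content. COL1A1/COL1A2 is 1.69 in KO with ZIC2 OE, 1.06 in KO, 0.742 in ZNF263 OE and 0.766 in WT cells, while COL4A1/COL4A2 stays between 1.09 and 1.21 in all libraries.

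Overexpression of ZNF263 was set against WT in the same way. In edgeR, 0 of the 36 tested collagens were called, where 0.764% of all tested genes were called (0.317% higher and 0.447% lower). DESeq2 also called 0. At an unadjusted p under 0.05, 7 collagens stood out, beside 10.6% of all tested genes, and the replicates did not overlap for 10 of 36, beside 19.4% of all genes. The median log2 fold change of the collagens was 0.00. Fold changes also followed GC content across genes here (Spearman 0.26), and the median was -0.015 after the GC and length correction. For COL1A1 the difference was -0.09 (95% interval -0.22 to 0.04, adjusted p = 0.646) and for COL18A1 it was 0.00 (-0.08 to 0.09, adjusted p = 0.989), so changes of the size seen in KO cells (0.67 and 0.36) lay outside these intervals. COL6A3 had -0.45 (-0.84 to -0.06, adjusted p = 0.377) and COL12A1 had -0.34 (-0.63 to -0.05, adjusted p = 0.367), with every ZNF263 OE library below every WT library for both. The smallest adjusted p was that of COL4A2, at 0.18 (SE 0.05, adjusted p = 0.107). COL4A2 was called with no filter on low counts (0.0254), with only the 2 groups (0.00397), after the GC and length correction (0.0357) and without KO replicate 2 (0.0234).

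Of 18 tested genes that modify and fold collagen chains, 8 rose and 4 fell in KO against WT, where 20.0% of all tested genes rose and 18.5% fell, with a median log2 fold change of 0.16. PLOD3, a lysyl hydroxylase and collagen glycosyltransferase, averaged 52.3 ± 1.49 CPM in KO and 38.3 ± 1.15 CPM in WT cells (log2 fold change 0.45, SE 0.05, adjusted p = 9.04e-07). P4HB, a subunit of prolyl 4-hydroxylase, averaged 600.2 ± 16.8 CPM in KO and 499.7 ± 12.2 CPM in WT cells (0.26, SE 0.03, adjusted p = 2.63e-06). P3H2, a prolyl 3-hydroxylase that acts on type IV collagen, ran the other way, at 23.7 ± 1.25 CPM in KO with ZIC2 OE, 27.3 ± 0.933 CPM in KO and 36.9 ± 0.699 CPM in WT cells. It fell by 0.44 in KO (adjusted p = 2.28e-06) and by 0.64 in KO with ZIC2 OE (adjusted p = 2.81e-08), both against WT on the log2 scale. Between KO with ZIC2 OE and KO cells 1 gene rose, the folding enzyme FKBP14 (0.24, SE 0.06, adjusted p = 0.0152), and 1 fell, P3H2 (-0.20, SE 0.06, adjusted p = 0.0413). Of all tested genes, 8.34% were called in that comparison. Against WT, where 20.3% of all tested genes rose and 17.3% fell, 10 rose and 4 fell in KO with ZIC2 OE. SERPINH1, the collagen chaperone HSP47, averaged 627.8 ± 28.0 CPM there and 509.8 ± 2.33 CPM in WT cells (0.30, SE 0.04, adjusted p = 1.16e-06).

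Genes of export, processing and cross-linking were mixed: of 19 tested, 3 rose and 4 fell in KO against WT, near the 38.6% of all tested genes that were called, and the median log2 fold change was -0.07. PCOLCE, which enhances the trimming of procollagen, averaged 24.0 ± 2.47 CPM in KO with ZIC2 OE, 30.0 ± 1.40 CPM in KO and 18.3 ± 1.26 CPM in WT cells. It rose in KO against WT (0.70, SE 0.07, adjusted p = 9.15e-08) and fell in KO with ZIC2 OE against KO (-0.31, SE 0.07, adjusted p = 0.00497). SEC24D, a coat protein of the vesicles that carry procollagen, averaged 127 ± 5.54 CPM in KO and 151 ± 4.94 CPM in WT cells (-0.25, SE 0.04, adjusted p = 7.49e-05). With ZIC2 OE against KO, 1 gene rose and 3 fell, where 8.34% of all tested genes were called. The gene that rose was LOXL2, a lysyl oxidase that cross-links type IV and other collagens, at 56.2 ± 3.12 CPM in KO with ZIC2 OE, 35.4 ± 1.52 CPM in KO and 35.6 ± 2.45 CPM in WT cells (0.68 against KO, SE 0.06, adjusted p = 9.85e-09). Against WT, where 20.3% of all tested genes rose and 17.3% fell, 2 rose and 6 fell in KO with ZIC2 OE.

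Of 8 tested collagen receptors, 2 rose and 0 fell in KO against WT, near the 20.0% of all tested genes that rose, namely MRC2, an endocytic receptor for collagen (0.48, SE 0.07, adjusted p = 1.54e-05), and the integrin subunit ITGB1 (0.10, SE 0.03, adjusted p = 0.0265). In KO with ZIC2 OE against KO, ITGB1 fell (-0.18, SE 0.03, adjusted p = 0.000692) and ITGA11, an integrin subunit for type I collagen, rose, with 15, 21 and 29 counts in KO with ZIC2 OE libraries and 14, 2 and 5 counts in KO libraries (log2 fold change 2.22, SE 0.41, adjusted p = 0.000703). Between these groups 4.99% of all tested genes rose and 3.35% fell. Against WT 2 rose and 2 fell in KO with ZIC2 OE, where 20.3% of all tested genes rose and 17.3% fell. Of 10 tested genes of collagen breakdown and its inhibitors, 6 rose and 2 fell in KO against WT, where 20.0% of all tested genes rose and 18.5% fell. MMP15, a membrane-bound matrix protease, averaged 85.0 ± 3.21 CPM in KO and 59.7 ± 2.20 CPM in WT cells (0.51, SE 0.05, adjusted p = 8.62e-09). MMP9, a gelatinase that cleaves denatured and type IV collagen, averaged 7.91 ± 0.661 CPM in KO with ZIC2 OE, 12.9 ± 0.904 CPM in KO and 7.67 ± 0.919 CPM in WT cells, rising in KO against WT (0.74, SE 0.10, adjusted p = 2.52e-06) and falling in KO with ZIC2 OE against KO (-0.70, SE 0.10, adjusted p = 2.12e-05). It was the 1 gene of this list that fell in that comparison, while TIMP3, a matrix-bound protease inhibitor (0.59, SE 0.08, adjusted p = 1.59e-05), MMP14 and MMP2 rose. The shares of all tested genes there were again 4.99% higher and 3.35% lower. Against WT 6 rose and 2 fell in KO with ZIC2 OE (20.3% and 17.3% of all tested genes).

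Among 11 tested matrix partners of collagen, 5 rose and 1 fell in KO against WT (median log2 fold change 0.15), 5 rose and 1 fell in KO with ZIC2 OE against KO (median 0.13), and 9 rose and 1 fell in KO with ZIC2 OE against WT (median 0.42). The shares of all tested genes called in these comparisons were 38.6%, 8.34% and 37.6%. SPARC, which binds collagen and helps its assembly, averaged 456 ± 2.41 CPM in KO with ZIC2 OE, 459 ± 19.1 CPM in KO and 340.4 ± 7.12 CPM in WT cells, a log2 fold change of 0.43 for KO against WT (SE 0.04, adjusted p = 3e-09). NID2, a nidogen that bridges type IV collagen and laminin, averaged 9.74 ± 0.498 CPM in KO with ZIC2 OE and 6.16 ± 1.42 CPM in KO cells (0.63, SE 0.12, adjusted p = 0.00147). The collagen-binding proteoglycan BGN also rose, at 3.52 ± 0.436 CPM in KO with ZIC2 OE and 2.07 ± 0.232 CPM in KO cells (0.74, SE 0.17, adjusted p = 0.00690). THBS2 had the smallest adjusted p of this list between the knockout groups (0.32, SE 0.05, adjusted p = 0.000141). FN1 was the 1 gene that fell there (-0.31, SE 0.08, adjusted p = 0.0122), and it rose in KO against WT (0.655, SE 0.08, adjusted p = 9.04e-07). THBS1, a secreted matrix glycoprotein, averaged 110.6 ± 1.20 CPM in KO, 52.1 ± 1.08 CPM in ZNF263 OE and 65.8 ± 0.137 CPM in WT cells. It was higher in KO (0.75, SE 0.04, adjusted p = 1e-12) and was the 1 gene over all 5 of these lists that was called under ZNF263 OE, where it fell by 0.34 on the log2 scale (SE 0.04, adjusted p = 5.57e-05).

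Markers of collagen-rich cell types were read beside these values. The 14 fibroblast and mesenchyme markers summed to 951 to 1036 CPM in KO with ZIC2 OE, 1004 to 1156 CPM in KO, 657.5 to 678 CPM in ZNF263 OE and 679 to 721 CPM in WT libraries. Of 10 tested, 5 rose and 0 fell in KO against WT, where 20.0% of all tested genes rose and 18.5% fell. In KO with ZIC2 OE against KO 1 rose and 1 fell (4.99% and 3.35% of all tested genes). Against WT 5 rose and 1 fell (20.3% and 17.3%). The genes that rose in KO against WT were TAGLN, TWIST1 (1.13 on the log2 scale, adjusted p = 0.0276, at 3 to 38 counts per library), PDGFRA (0.52, adjusted p = 0.00198), PDGFRB (0.26, adjusted p = 0.00270) and FBLN1 (0.21, adjusted p = 0.000274). Most of the difference was TAGLN, an actin-binding protein, at 470.4 ± 39.1 CPM in KO with ZIC2 OE, 505 ± 69.1 CPM in KO, 119.7 ± 5.57 CPM in ZNF263 OE and 170.5 ± 13.9 CPM in WT cells. It was the 1 marker of this list called under ZNF263 OE (-0.51 on the log2 scale, SE 0.08, adjusted p = 0.000734). The 4 markers of the list that were not tested, DCN, LUM, FAP and PRRX1, had 0 to 5 counts in every library, and COL3A1 had 0 to 3. The 7 chondrocyte and skeletal markers summed to 21.3 to 24.2 CPM in KO with ZIC2 OE, 18.2 to 19.0 CPM in KO, 17.2 to 19.3 CPM in ZNF263 OE and 18.1 to 18.6 CPM in WT libraries. Of 4 tested, 1 rose in KO against WT, where 20.0% of all tested genes rose. This was ACAN, the main cartilage proteoglycan (0.62, SE 0.24, adjusted p = 0.0412). It had 1.75, 1.58 and 1.725 CPM in KO and 0.751, 0.960 and 1.52 CPM in WT libraries, at 13 to 75 counts per library. SOX9, a regulator of COL2A1 and COL9A1 in cartilage, rose in KO with ZIC2 OE against KO (0.72, SE 0.09, adjusted p = 3.84e-06), at 13.4 ± 0.210 and 8.28 ± 0.807 CPM. It was the 1 of 4 called there, beside 8.34% of all tested genes. The 10 endoderm markers, which share PDGFRA with the fibroblast list, summed to 25.1 to 28.4 CPM in KO with ZIC2 OE, 27.3 to 29.7 CPM in KO, 16.1 to 17.6 CPM in ZNF263 OE and 18.2 to 20.1 CPM in WT libraries, with SOX17 at 0 or 1 count in each. Of 5 tested, 3 rose and 0 fell in KO against WT, namely AFP (0.68, adjusted p = 0.000145), CXCR4 (adjusted p = 1.65e-05, at 3.25 ± 0.271 CPM in KO and 1.58 ± 0.116 CPM in WT cells) and PDGFRA. In KO with ZIC2 OE against WT 4 rose and 0 fell. Of all tested genes, 20.0% rose and 18.5% fell in KO against WT, and 20.3% and 17.3% in KO with ZIC2 OE against WT. Of 4 tested endothelial markers, 1 rose and 2 fell in KO against WT, 2 rose and 1 fell in KO with ZIC2 OE against KO, and 3 rose and 1 fell in KO with ZIC2 OE against WT. Of all tested genes, 38.6%, 8.34% and 37.6% were called in these comparisons. CDH5 averaged 2.44 ± 0.152 CPM in KO with ZIC2 OE, 0.510 ± 0.0827 CPM in KO and 1.06 ± 0.242 CPM in WT cells (2.20 against KO, adjusted p = 5e-07). VWF averaged 2.98 ± 0.163 CPM in KO with ZIC2 OE, 0.864 ± 0.231 CPM in KO and 1.14 ± 0.171 CPM in WT cells (1.77 against KO, adjusted p = 3.86e-06). KDR, which makes up most of the endothelial sum, averaged 84.3 ± 5.01 CPM in KO with ZIC2 OE, 99.2 ± 9.88 CPM in KO and 128.8 ± 1.55 CPM in WT cells. It fell in all 3 comparisons. The part of these markers in the collagen differences was not tested.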

How the data were processed

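Poly(A) RNA-seq of 12 libraries, 3 per group, was analysed from the deposited table. The values are raw read counts for each gene, which the authors deposited without scaling. The submitters' processing notes name STAR, featureCounts, DESeq2 and the build hg19 but no version or setting. Only uniquely aligned reads were counted, per the file headers. The library kit named in the labels' protocols does not mark strand.

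Genes with enough counts (filterByExpr, 15437 genes) of all 12 libraries were fitted by group, with no other term, in edgeR 4.0.16 (R 4.3.3, TMM scaling, quasi-likelihood test, Benjamini-Hochberg over all tested genes). The common biological coefficient of variation was 0.04 with 8 residual degrees of freedom. The fit was tested on simulated counts. CPM uses TMM-scaled totals, and RPKM divides CPM by the deposited exon length. GC content was read from GENCODE transcripts by symbol, for 95.2% of tested genes and all members. Class sums and chain ratios were not tested. DESeq2 1.42.0 and the other alternatives are under the dependence on processing.

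The members, the 5 collagen-related lists, the marker lists and the naming rule were chosen with earlier results of these data known. Values in every library are given for the 3 most abundant members of each class, up to 5 called members per class and comparison with the largest change, and the type IV pairs. Other lists name some, not all, of the 3 called members with the smallest adjusted p per comparison. TIMP4 and MIA2 in KO against WT are among those that met this rule and are not described. COL5A1, COL6A2 and COL9A2 were added as partner chains. MMP14, MMP2, single genes of the marker lists, and THBS2 and FN1 were named after their values were seen. Markers of pluripotent cells, fibroblasts, endoderm and chondrocytes are reported in the text. Markers of mesoderm summed to 3.29 to 5.08 CPM in KO with ZIC2 OE, 3.31 to 4.00 in KO, 2.22 to 3.68 in ZNF263 OE and 2.60 to 2.95 in WT libraries, those of trophoblast to 7.20 to 8.76, 6.01 to 7.69, 7.48 to 8.12 and 5.38 to 5.87 CPM in that order, those of neural cells to 351 to 375, 342 to 368, 304 to 318 and 310 to 312 CPM, and those of endothelium to 143 to 154, 144 to 165, 173 to 178 and 162.5 to 170.5 CPM.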

Additional observations from a re-analysis of the deposited data

How the results depend on the processing

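No called value of a collagen described with values changed its sign under the alternatives run, and scaling by DESeq2 size factors moved the median of all genes by no more than 0.008 (log2). For KO against WT the median collagen log2 fold change was 0.032 with no filter on low counts. For ZNF263 OE against WT, 1 collagen (COL4A2) was called with no filter, with only the 2 groups compared, with the GC and length correction, and with that correction and the replicate block together, and 220, 431, 254 and 249 genes were called in all (118 in the reported fit). For KO with ZIC2 OE against KO, 9 collagens were called with only the 2 groups. Scaling to TPM gave ratios of summed levels for KO against WT of 1.19 (fibrillar), 1.07 (basement membrane) and 0.991 (other), and 1.02 for other collagens in KO with ZIC2 OE against WT. Leaving out each library in turn gave 16 to 19 called collagens for KO against WT, 0 to 1 for ZNF263 OE against WT, 11 to 14 for KO with ZIC2 OE against KO and 14 to 18 for KO with ZIC2 OE against WT, and over all genes 4782 to 5968, 50 to 262, 842 to 1476 and 4549 to 6384. Among these, KO with ZIC2 OE against KO had 842 called genes without KO with ZIC2 OE replicate 1, and ZNF263 OE against WT had 50 to 77 without any 1 of its own libraries and 262 without KO replicate 2. Same-numbered libraries of 2 groups had deviations correlated from -0.463 to 0.397, so the numbers were not taken as pairs; with the replicate number as a block, 18, 0, 14 and 17 collagens and 5845, 108, 1244 and 5691 genes were called in that order of comparisons. Between KO with ZIC2 OE and KO the block gained COL12A1 (adjusted p = 0.0318) and lost COL6A1 (0.0635). COL8A1 had 6 to 53 counts per library, and the part of depth in its calls was not tested.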
